A study of Drosophila melanogaster with 3 samples.

Results

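Troughs in the Yorkie (Yki) ChIP-seq profile of S2 cells are stretches where the input library, after scaling, holds more tags than the ChIP libraries. S2 is an established cell line derived from Drosophila melanogaster embryos. A trough was a run of consecutive 100 bp samples at or below a fixed negative score on arm 2L, 2R, 3L, 3R or X or on chromosome 4. This threshold lay between -134.99 and -135.02, the lowest scores of the nearest runs on either side of it. The rule gave 1113 troughs, out of 1119 such runs on all 15 sequences of the track. Together they covered 747 kb, which is 0.621% of the samples of the 6 arms. Samples as far above 0 made up 1.23% of the same arms. Members were chosen by their score in this track, so depths, widths and numbers are descriptions and carry no test.

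Chromatin came from S2 cells fixed with formaldehyde in culture, and gave 2 Yki ChIP libraries and 1 library of unselected input. No genotype, treatment or time point separates the libraries. Titles, source names and antibody entries name Yki or input in S2 cells, whereas the description fields name a GAF embryo ChIP or a Yki embryo ChIP. The titles were followed. All values come from 1 pooled track and 1 pooled list of 3990 intervals, of which 3938 lay on the 6 arms. No value has a replicate error, sequencing depth is not known for any library, and the confidence intervals cover counting error only. These confidence intervals take each trough as independent. Troughs cluster along the arms, so they are too narrow even for that.

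The Hippo pathway restrains tissue growth by controlling Yki, a transcriptional coactivator that does not bind DNA by itself. When the upstream kinases Hippo and Warts are active, Yki is phosphorylated and kept in the cytoplasm. Otherwise it enters the nucleus and is brought to growth and survival genes by DNA-binding partners such as Scalloped. In a ChIP experiment the input library samples the fragmented chromatin without selection, and its tags are subtracted to show where the antibody added signal. Positions with a score below 0 are those where this subtraction takes away more than the ChIP libraries supplied.

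The scale of the score could be read from isolated bumps in the track. Of 1153 bumps of the most frequent size above 0, all had a height of 1 (within 0.1%) and a Gaussian SD of 200 bp (within 0.1 bp). Of 893 such bumps below 0, 99.8% had a height of 0.362 and the same SD. The first was read as 1 ChIP tag and the second as 1 input tag, so 1 ChIP tag weighed as much as 2.76 input tags. The threshold then equals at least 373 input tags stacked at 1 position with no ChIP tag beside them. Its counting SD is at least 5.88, if the tags are independent.

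Most troughs lay just beyond the threshold. The median depth was -159 with quartiles of -145 and -183, and 95% of troughs were shallower than -271. A depth short of -150 was found in 386 troughs, from -150 to -200 in 533 and from -200 to -300 in 157. The remaining 37 reached -300 or lower, and the deepest of all, at -633, was 3.97 times as deep as the median. With a counting SD of at least 5.88 at the threshold, neighbours in this order do not differ beyond counting error there. The 3 runs just inside the threshold reached -135.02, -135.08 and -135.12, and the 3 just outside it reached -134.99, -134.97 and -134.94.

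Troughs were short as runs but broad as depressions. The median run was 500 bp long (quartiles 300 and 800 bp), 69 runs were 1 sample long, 212 reached 1 kb and 43 reached 2 kb. Run length follows depth by construction, since a deeper depression stays longer under a fixed line (Spearman rho of depth and run width 0.86 across troughs, which share their libraries and smoothing). The width at 50% of depth, measured from 0, does not have that limit, and it was nearly unrelated to depth (rho = 0.02). Its median was 1259 bp (quartiles 941 and 1878 bp). A stack of tags at 1 position would give 471 bp after the smoothing. By comparison, 23 troughs (2.07%) were narrower than 600 bp on this measure, and 244 (21.9%) were at least 2 kb wide.

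Runs of the opposite sign and similar size were narrower. The 1240 runs as far above 0 as the threshold lies below it, with a highest score under 300 (median 184), had a median width at 50% of height of 804 bp (quartiles 649 and 1165 bp), against 1256 bp (940.04 and 1869 bp) for the 1076 troughs shallower than -300 (median depth -158). Of the positive runs, 14.6% were narrower than 600 bp, against 2.04% of these troughs. The middle ranges of the distributions overlap, and the smoothing width is the same on both sides.

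**Figure D1:**
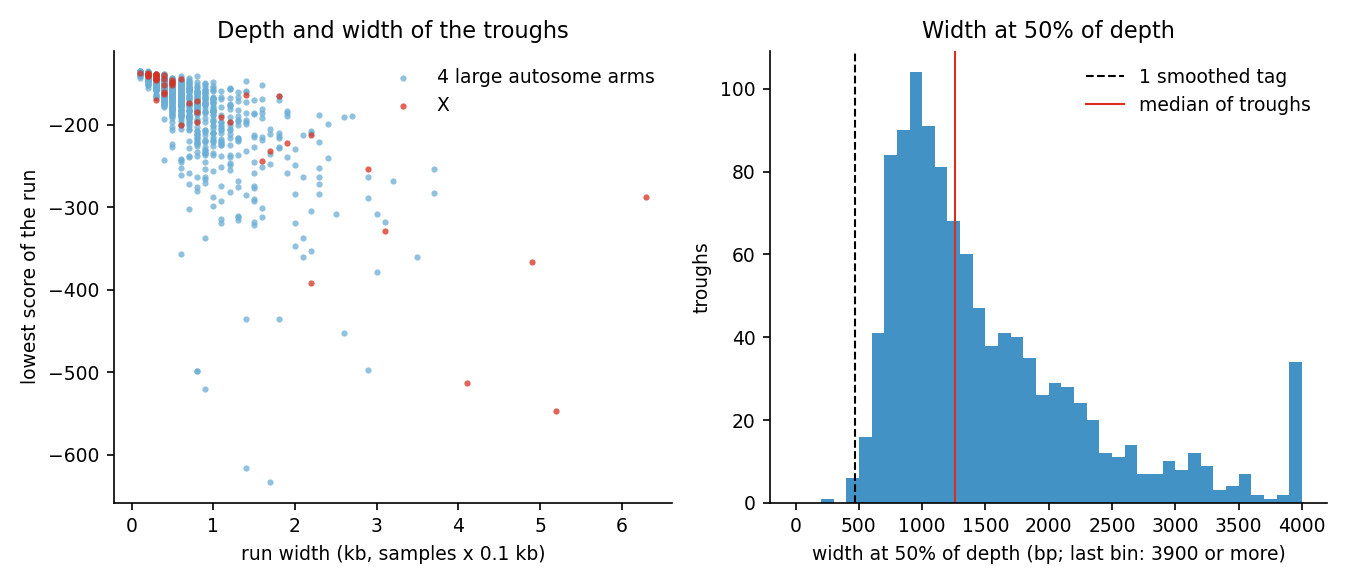
Left, the lowest score of each of the 1113 troughs against its run width in kb, with troughs of the 4 large autosome arms in blue and those of X in red; right, the number of troughs by width at 50% of depth in bp, with the last bin holding all wider ones. The median of 1259 bp (red line) lies to the right of the 471 bp that 1 smoothed tag gives (dashed line), and 4 of the 5 widest runs are on X.

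Below-0 surroundings extended well past the runs. The 1113 troughs fell in 967 unbroken stretches of score below 0, with a median length of 3500 bp (quartiles 2200 and 5500 bp), and 122 of these stretches held more than 1 trough. The longest, at 4479437 to 4534371 on 2L, ran for 55 kb at a median score of -85.9 and held only 2 troughs, the deeper at -141. The next, of 22.6 kb on 2R (4753108 to 4775642) and 22.4 kb on 3R (24537724 to 24560058), had medians of -68.4 and -70.2 and held 1 trough each. These 3 were picked for their length after the values were seen. These long depressions were shallow and carried few troughs. The troughs as a whole held 8.67% of all score below 0 on the 6 arms.

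The median score around a trough rose most within the first 1 kb. Over all 1113 troughs the median score rose from -159 at the lowest sample to -90.4 at 0.5 kb, -36.9 at 1 kb, -14.4 at 2 kb and -4.30 at 5 kb, taking the mean of both sides. At 20 kb it was -1.81. The 37 troughs of -300 or lower started at -347 and were at -98.5 at 1 kb, -60.7 at 2 kb and -1.20 at 5 kb. Listed intervals had no median below 0 beside them at these distances: for the 48 intervals of 1000 or more the median was 79.05 at 1 kb, 24.3 at 2 kb and 14.2 at 5 kb, and for the 635 from 300 to 1000 it was 50.3, 26.8 and 14.3.

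**Figure D2:**
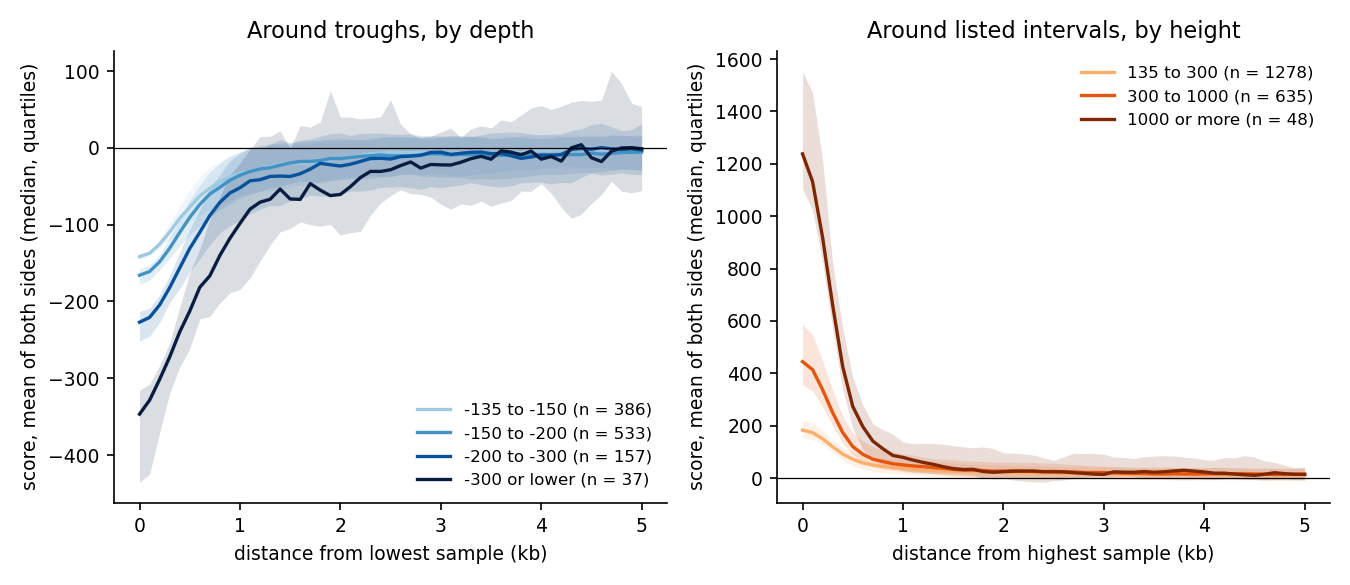
Median score (line) and quartiles (band) against distance in kb from the lowest sample of troughs in 4 depth classes (left) and from the highest sample of listed intervals in 3 height classes (right), each the mean of both sides. Over all troughs the median is -4.30 at 5 kb, which pools flanking and separate troughs of unlike surroundings, and the median around intervals stays above 0 at the distances plotted.

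At this fixed threshold, troughs were spread over the large autosome arms, scarce on X and missing from chromosome 4. On 2R there were 291, or 13.8 per Mb (exact 95% Poisson interval 12.2 to 15.4), on 3R 325 or 11.6 (10.4 to 13.0), on 2L 242 or 10.5 (9.24 to 11.9) and on 3L 208 or 8.49 (7.38 to 9.73). The Poisson intervals of 2R and 3L do not overlap, while those of 2L and 3R do. They take each trough as independent although troughs cluster, so they are too narrow to rank the arms. X held 47, or 2.10 per Mb (1.54 to 2.79). The X rate was 0.19 times that of the 4 large autosome arms (exact interval 0.14 to 0.25). It was 0.32 (0.17 to 0.55) with a threshold of -200, and 0.12 without the 18 troughs of 1 stretch of X. Listed intervals stood at 16.7 per Mb on X and 36.9 per Mb on these arms. The spread of the score was also smaller on X, with a median absolute deviation of 10.4 against 15.8 to 18.3 on these arms, and its part in the lower rate was not tested. The threshold is the same absolute score on every arm. Input is not given on its own, so a difference in input tags per Mb between X and the autosomes could not be allowed for.

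The share of samples called, read against these counts, was 0.718% over the 4 large autosome arms, 0.778% on 2L, 0.805% on 2R, 0.513% on 3L, 0.781% on 3R and 0.242% on X. Chromosome 4, a short and largely heterochromatic autosome, had no sample at the threshold or lower among 12948. Its lowest score was -77.7, and the exact 95% Poisson limit for a count of 0 allows up to 2.85 troughs per Mb there. Among the 4 large autosome arms, 3L was lowest in both troughs and listed intervals per Mb, but the order of the others differed. Their listed intervals ran from 35.1 per Mb on 3L to 39.0 on 2L. X and chromosome 4 were below these arms in both, with 16.7 and 3.86 listed intervals per Mb. Arms 2R and 3R, with most troughs per Mb, also had mean scores below 0 (-1.56 and -0.61), and 2L and 3L had means above 0 (4.03 and 3.97). X, with far fewer troughs, also had a mean below 0 (-0.39). Chromosome 4, with no trough, had the highest mean, 15.8. Only 10.1% of its samples were below 0, against 41.2% (2L) to 49.9% (3R) on the other arms. Rates and mean scores come from the same track.

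**Figure D3:**
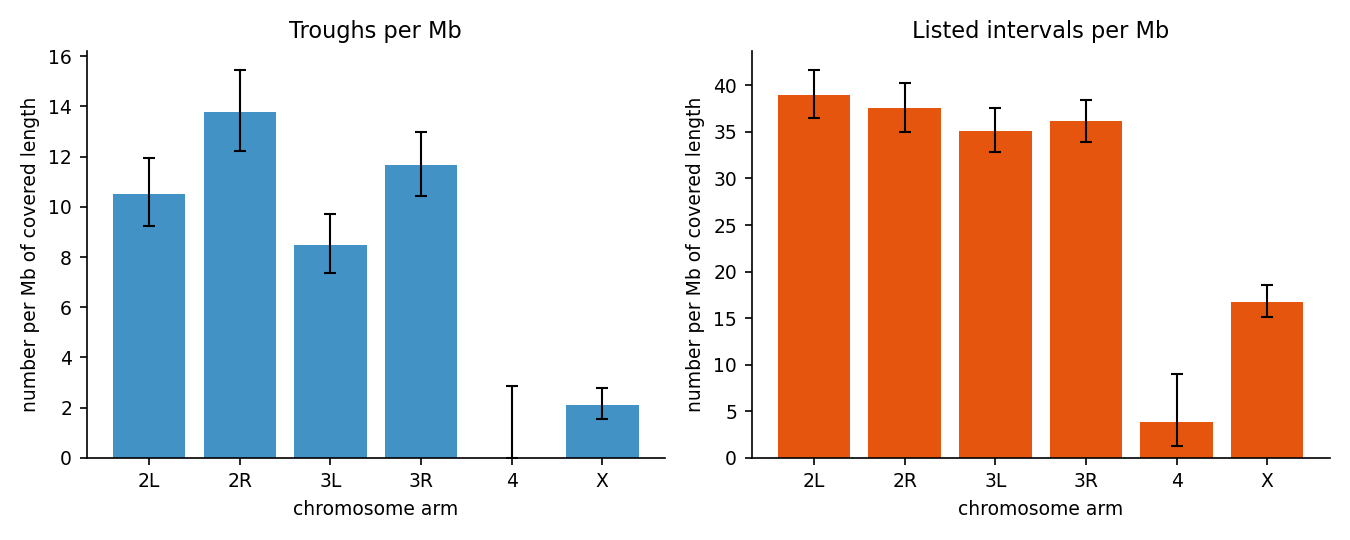
Number of troughs (left) and of listed intervals (right) per Mb of covered length on each arm, with exact 95% Poisson intervals as error bars. Troughs run from 8.49 per Mb on 3L to 13.8 on 2R, with 2.10 on X and 0 on chromosome 4.

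Along the arms the troughs were uneven. Of 1201 windows of 100 kb, 712 (59.3%) held none, and the richest 60 windows (5%) held 386 troughs, or 34.7%. The richest windows of 1 Mb were the first of 2L and the window from 25 Mb of 3R, with 43 troughs each, against medians of 6 and 9 per window on these arms. The window from 19 Mb of 2R held 35, and on 3L the first Mb held most, 21. On X 9 of 22 windows held none and the window from 20 Mb held 15. The last 3 Mb of an arm on the side away from the centromere held 39.3% of the troughs of 2L on 13.04% of its length, 25.8% on 14.2% on 2R, 23.1% on 12.3% on 3L and 18.5% on 10.8% on 3R. On X that share was 14.9% on 13.4% of the length. Listed intervals in the same ends came to 20.2% on 2L, 8.95% on 2R, 14.7% on 3L and 13.0% on 3R, so on 2R this end was rich in troughs and not in intervals. The comparison of arm ends was chosen after the windows were seen.

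Windows with many troughs held more intervals on average, but the relation was loose. On the 4 large autosome arms, the 497 windows of 100 kb without a trough held 2.93 intervals on average, the 221 with 1 trough 4.03, and the 45 with 5 or more 6.24. Intervals of 300 or more went from 0.55 to 1.38 per window between the first and the last of these classes. The median score of the windows went from 1.22 to -8.36. Over windows of 1 Mb on these arms the number of troughs had a Spearman rho of 0.19 with the number of intervals and -0.50 with the median score (97 windows). Over the 120 windows of all 6 arms the values were 0.41 and -0.43, so the rho with intervals was larger with X and chromosome 4 added. Both had fewer troughs and fewer intervals per Mb than the large autosome arms, and the part of this difference was not tested. All windows share the same 3 libraries.

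No trough overlapped a listed interval, even by 1 bp. This was largely fixed in advance, since troughs and listed intervals take opposite ends of a score from the same pooled libraries. The nearest pair of edges was 83 bp apart, and the median distance from a trough to the nearest interval was 9.41 kb (quartiles 3.94 and 23.7 kb). The farthest lay 273 kb away. An interval lay within 1 kb of 79 troughs (7.10%), within 5 kb of 349 (31.4%, exact binomial interval 28.6% to 34.2%) and within 20 kb of 795 (71.4%). Of all samples outside intervals, 5.22%, 19.4% and 48.8% lay as near. The share of troughs was higher than that of samples at each distance, and from the lowest sample alone 29.9% (27.2% to 32.7%) had an interval within 5 kb. On the 4 large autosome arms the shares from the lowest sample were 30.1% of troughs and 21.6% of samples, and on X 25.5% of troughs (12 of 47) and 11.03% of samples.

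By their neighbours the troughs fell into 4 sets. Those flanking a tall interval, with an interval of 300 or more within 5 kb, numbered 121 (10.9%, exact interval 9.10% to 12.8%). Of samples outside intervals, taken as single points, 4.69% lay as near to such an interval. A further 228 (20.5%) had only lower intervals within 5 kb, 446 (40.1%) had their nearest interval 5 to 20 kb away, and 318 (28.6%) were separate, with none within 20 kb. The median depth went from -176 in the flanking set over -162 and -159 to -155 in the separate set. The deeper quartile was -237 in the flanking set and -172 in the separate set, and the deepest troughs were at -633 and -347. The surroundings of these sets were unlike, in part because the sets were defined by their neighbours: at 5 kb the median score was 36.9 around flanking and -14.3 around separate troughs. At 20 kb it was 0.86 and -9.19. Only 43 troughs had intervals within 5 kb on both sides, and 306 had them on 1 side.

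Tall intervals were most frequent beside the deepest troughs. An interval of 300 or more was within 5 kb of 20 of the 37 troughs of -300 or lower (54.1%, exact interval 36.9% to 70.5%). In the classes from -200 to -300, -150 to -200 and short of -150 the shares were 15.3% (24 of 157), 9.57% (51 of 533) and 6.74% (26 of 386, interval 4.45% to 9.71%). With any interval counted, the shares within 5 kb were 67.6%, 41.4%, 29.5% and 26.4%, in the same order. Within 1 kb the shallowest class, at 3.37% (13 of 386), lay below the 5.22% of all samples outside intervals. No counting interval was computed for that small count. The deepest class was at 35.1% (13 of 37). Troughs were measured from the edges of their runs, whereas samples are single points. Deeper runs are longer (median 1800 bp in the deepest class and 300 bp in the shallowest), so their edges reach nearer to intervals by construction. The part of this in the difference between classes was not tested, and shares from the lowest sample are not given by class. The deep troughs were concentrated: 16 of the 37 lay within 100 kb of the deepest trough of 3R (11) or of X (5). Without these stretches 8 of 21 (38.1%, interval 18.1% to 61.6%) had an interval of 300 or more within 5 kb. In the class from -200 to -300, also without them, it was 22 of 147 (15.0%, interval 9.62% to 21.8%), and these counting intervals overlap. Any interval lay within 1 kb of 6 of these 21 (28.6%).

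Seen from the intervals, most had no trough nearby. Of the 683 intervals of 300 or more, 112 (16.4%, exact interval 13.7% to 19.4%) had a trough within 5 kb and 571 had none, against 9.83% (8.83% to 10.9%) of the 3255 lower ones. Of all samples outside intervals 7.96% lay within 5 kb of a trough. Intervals were measured from both edges and samples as single points, so a longer interval reaches a trough more easily. The part of interval length in these shares was not tested. The share rose from 4.92% of intervals under 100 (3.68% to 6.42%) over 11.8% from 100 to 200 and 13.3% from 200 to 300 to 27.1% of those of 1000 or more (13 of 48, interval 15.3% to 41.8%). The interval of 27.1% overlaps those of the classes from 300 to 500 (14.9%) and from 500 to 1000 (16.7%). Heights and troughs are read from the same track, so this is a description of that track.

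**Figure D4:**
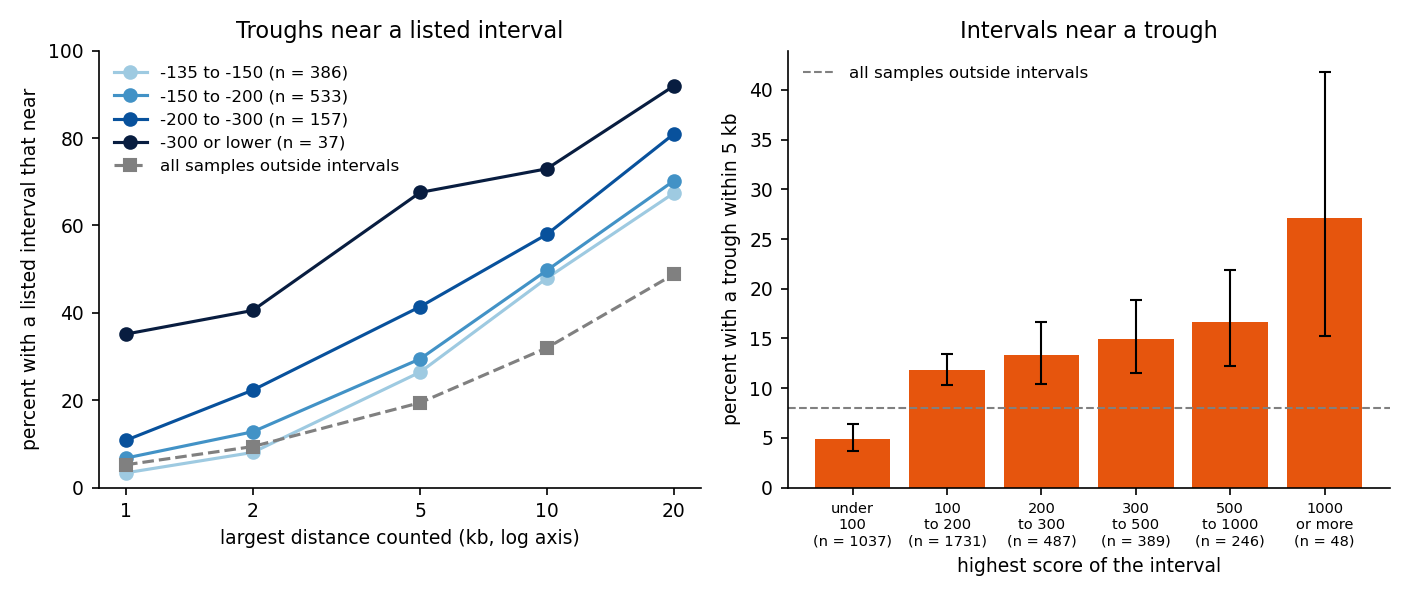
Left, percent of troughs in 4 depth classes with a listed interval within 1, 2, 5, 10 or 20 kb (log axis), with all samples outside intervals in grey; right, percent of listed intervals with a trough within 5 kb by height of the interval, with exact 95% binomial intervals. At 5 kb the shares are 67.6% for troughs of -300 or lower and 26.4% for the shallowest, against 19.4% of samples. Troughs and intervals are measured from their edges, and samples as single points.

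The tallest intervals differed among themselves. The highest on the arms, at 616311 to 617300 on 3L with a score of 3173, had a trough 2.75 kb away, and the interval at 25597239 to 25602239 on 3R (2333) had a trough at 2.98 kb. The second highest, at 27538595 to 27539999 on 3R (3052), had none within 46.6 kb, and the one at 12545099 to 12546743 on 2L (1877) none within 78.9 kb. The highest of X, at 2211350 to 2212012 (1232), was 260 kb from any trough. The closest approach among the 48 intervals of 1000 or more was 148 bp, at 648478 to 649203 on 3L (1143). These intervals were chosen after their values were seen, to show the range.

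Troughs on both sides of 1 interval were rare. Within 5 kb they were found for 47 of the 3938 intervals, 12 of them with a height of 300 or more and none with 1000 or more. The tallest was the interval at 1157463 to 1158875 on 2L (903), with troughs 2591 and 161 bp away. The X interval at 19760309 to 19760908 (857) had them at 998 and 1667 bp. An interval at 653853 to 654738 on 3L (685) had them at 166 and 513 bp, and one at 25574468 to 25575337 on 3R (655) at 209 and 186 bp. These 4 are the tallest of the 47.

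Of the 10 deepest troughs, 5 lay in a short part of 3R. The deepest, at 25617124 to 25618758, fell to -633 (counting SD at least 12.7) over 1700 bp, and an interval of 337 lay 402 bp to its left. The run amounts to a net 4445 input tags. The second, at 25521024 to 25522358, fell to -616 over 1400 bp, with an interval of 673 at 3.79 kb. The trough at 25605224 to 25605958 fell to -498 over 800 bp and sat 339 bp from an interval of 295. Taller intervals, of 1089 and 2333, lay 1.85 and 2.98 kb from it. The remaining troughs of this part, at 25509224 to 25511758 (-453) and 25553024 to 25554758 (-435), were 2600 and 1800 bp long, with nearest intervals of 673 at 5.03 kb and 548 at 3.50 kb. Of these 5, 4 had one of 300 or more within 5 kb.

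The others of the 10 were on X, 3L and 2L. On X the troughs at 19754176 to 19759310 (-547) and 19762576 to 19766610 (-513) were long, 5200 and 4100 bp, and lay on both sides of the interval of 857. They amount to a net 9221 and 7593 input tags. The 3L trough at 650352 to 651186 (-520) was 900 bp long, and its width at 50% of depth, 642 bp, was close to the smoothing width of 471 bp. It sat between intervals of 150 and 200 (199.9) at 524 and 327 bp. A tall interval of 1143, at 648478 to 649203, also lay within 5 kb of it. The 2L trough at 18664537 to 18665271 (-498) was as narrow, 601 bp at 50% of depth, but its nearest intervals, of 110 and 208, were 11.0 and 11.7 kb away. The other 2L trough, at 1950737 to 1953571 (-497), was 2900 bp long and 16.8 kb from the nearest interval, of 84.2. Among the 10 deepest there were thus narrow and long troughs, with near and with distant intervals.

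The 5 depths from -497 to -520 lay close together against counting SDs of at least 11.3 to 11.5, whereas -633 and -435 (at least 10.6) lay far apart. On 2R the deepest trough was shallower, -305 (at least 8.83) at 184708 to 186842, and it was separate, with its nearest interval 86.7 kb away.

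The widest troughs were mainly on X. The widest, at 20275676 to 20281910, spanned 6300 bp at a depth of -287, and its nearest interval, of 114, lay 12.9 kb away. Both X troughs beside the interval of 857 and another at 19747776 to 19752610 (4900 bp, -366) followed. The fifth was on 2L at 1014037 to 1017671 (3700 bp, -282), with no interval within 59.4 kb. Of the 47 troughs of X, 18 (38.3%) lay between 19727676 and 20293610, a stretch chosen after its values were seen, among them all 5 of -300 or lower and 9 of the 11 of -200 or lower. The median run there was 1700 bp, against 400 bp elsewhere on X, where the deepest trough reached -231. Without these 18 the ratio of X to the autosome arms was 0.12 in place of 0.19.

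About as many troughs stood alone as in groups. Chaining troughs with 10 kb or less between edges gave 762 groups, of which 574 were single troughs (51.6% of all troughs), 120 were pairs, 51 held 3 or 4, and 17 held 5 or more. These 17 took in 128 troughs (11.5%) and were 16.5 to 75.6 kb long, with a median of 30.1 kb. The share standing alone was 46.3% in the flanking set and 58.5% in the separate set. Neighbouring troughs on an arm were 29.3 kb apart at the median.

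The 17 groups of 5 or more held 24 listed intervals in 524 kb, or 45.8 per Mb, against 32.8 per Mb over the 6 arms. The rate was 36.9 per Mb on the 4 large autosome arms, which held all of these groups but the X group. The count of 24 is small and no counting interval was computed for it. In 16 of the 17 the median score over the whole stretch, gaps included, was below 0, which is in part built in, since the troughs that chose the groups count in it. The exception, at 16379524 to 16416158 on 3R, had 7 troughs and a median of 16.8. No listed interval lay inside 8 of the 17, and 4 held an interval of 300 or more. Of the 188 groups of 2 or more, 150 held no interval, but these groups were short (median 6.33 kb) and together held 45.3 intervals per Mb. Some of the 17 held tall intervals and some lay far from any interval. The group at 22447952 to 22468586 on 3L, with 6 troughs and a highest score of 13.6, was 252 kb from the nearest interval.

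The group with most troughs, 17, spanned 75.6 kb of 3R, from 25506124 to 25581758. It held 7 intervals, from 149 to 673 in height, its score ran from -616 to 673, and its median was -39.1. Another 3R group, of 9, followed at 25617124 to 25650558, with no interval inside and a median of -85.3. The tall intervals at 25597239 to 25602239 (2333) and 25607813 to 25609251 (1089) lay in the gap between them.

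The other large groups were on 2L and X. The 12 troughs at 1130037 to 1169571 on 2L spanned 39.5 kb, with the interval of 903 inside, a lowest score of -378 and a median of -81.1. The 10 at 536537 to 578871 on 2L were shallower, none lower than -230, with intervals of 182 and 211 inside. The 9 at 20262876 to 20293610 on X held no interval, and 90.3% of samples were below 0 at a median of -126. Their highest score was 99.7. This X block is the lowest of the 5 by its median and has the least score above 0.

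**Figure D5:**
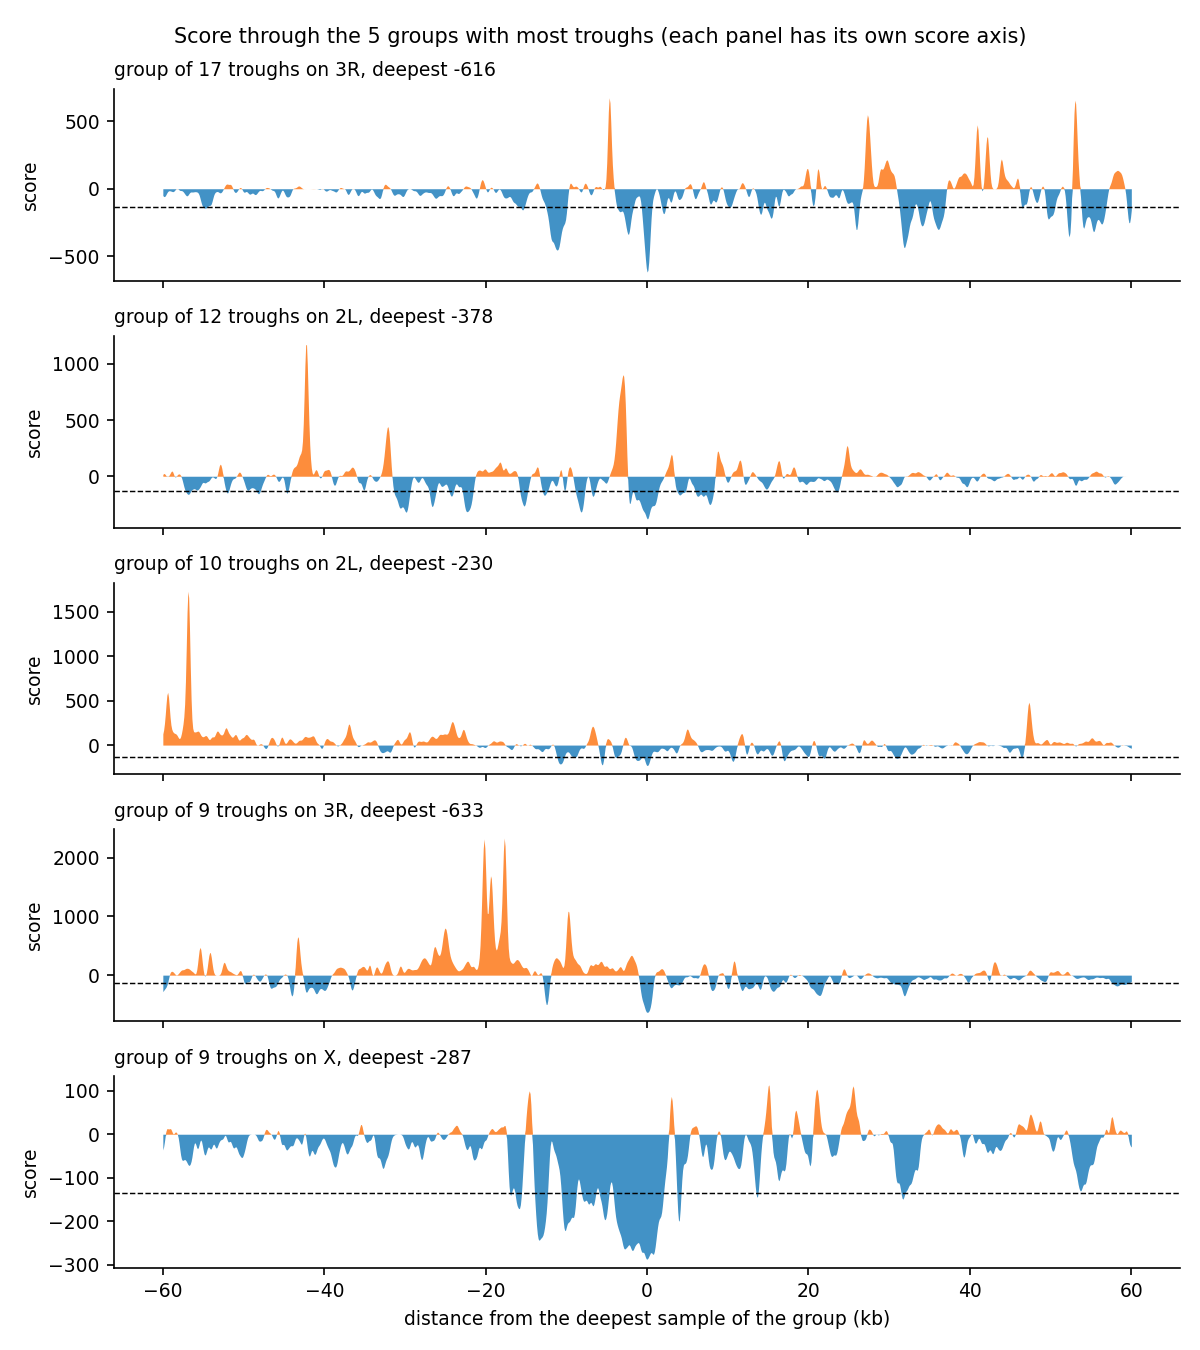
Score (vertical axes, a separate range in each panel) against distance in kb from the deepest sample for the 5 groups with most troughs, with score below 0 in blue, above 0 in orange and a dashed line at the threshold. The groups of 17 and 12 troughs alternate with intervals of up to 673 and 903, whereas the group of 9 on X stays almost wholly below 0.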

How the data were processed

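Chromatin from fixed S2 cells was sequenced after Nextera tagmentation and gel selection, per the labels' protocols. Build dm3 and the tools BWA, Bowtie and CASAVA 1.7.0 appear in the submitters' processing notes, without roles. How peaks were called is not given in the sources used here. Per the file headers, the authors deposited a smoothed, background-subtracted density score every 100 bp, and a list of intervals (chromosome, start, end) without heights. The header joins 2 library codes and 1 input code, which match no sample label and were taken to be the 3 libraries. Starts were raised by 1 to be 1-based.

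Troughs were runs of samples with a score of -135 or lower. Runs, widths (samples times 100 bp), distances between edges, groups and windows were computed with scipy 1.17.1, pandas 2.3.3 and numpy 2.4.6 under Python 3.11.15. A score within 0.001 of 0 counted as 0. Windows with under 50% of their samples were left out. An interval's height was its highest sample. Counting SDs take all tags of a trough as independent input tags (weight times depth over the square root of 2) and are lower bounds. Intervals are exact Poisson or Clopper-Pearson at 95%. Run finding and distances were tested on simulated data.

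No test was made: the rule, the track and the interval list rest on the same pooled libraries. The rule for named items was the 10 deepest and 5 widest troughs, the deepest of each arm, the 3 runs on each side of the threshold and the 5 largest groups. The members and lists were chosen with earlier results of these data known. No gene annotation or sequence of dm3 was used here, so no genes are named.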

Additional observations from a re-analysis of the deposited data

Results flagged for a closer look

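A signal outside the data compared above was found on sequences that are not part of the 6 arms: 6 runs reached the threshold there. The deepest, at 22164532 to 22165166 on Uextra, fell to -659 (counting SD at least 13.0) over 700 bp, lower than any trough of the arms. Others on Uextra fell to -308 and -228, 1 on U to -197, and 2 neighbouring runs on 3RHet to -231 and -144. These sequences are unplaced or heterochromatic, and input is not given on its own, so the values stand on the score after subtraction.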

How the results depend on the processing

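Settings that leave out a part of 3R or X, that measure from the lowest sample, or that join runs before grouping were chosen after seeing the data. With thresholds of -100 and -200 there were 2799 and 203 troughs. Median run width was 600 bp at -100, and median width at 50% of depth was 1320 bp at -200. The X to autosome ratio was 0.32 at -200 and 0.12 without the 18 X troughs of the dense stretch. The share of troughs with an interval within 5 kb (31.4%) became 13.4% at 2 kb, 51.0% at 10 kb, 43.3% at -200 and 10.9% with intervals of 300 or more only. The share of intervals of 300 or more with a trough within 5 kb (16.4%) became 7.61% at 2 kb, 24.6% at 10 kb, 29.3% with troughs of -100 and 6.59% with troughs of -200. The share of troughs in groups of 5 or more (11.5%) became 4.04% at 5 kb and 23.8% at 20 kb. A threshold nearer 0 gives more troughs, and a longer distance takes in more neighbours, by construction. For the widths, the X ratio and the share of troughs near an interval at -200 the cause was not tested. The other settings kept their values within 1.5 times for counts and within the counting interval otherwise. No paired analysis was possible because the track pools its libraries, and for the same reason no fit without 1 of the ChIP libraries could be made. Sequencing depth is not known.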
